A study of Mus musculus with 4 samples.

Results

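The 9 genes described here, Tjp1, Tjp3, Ocln, Cgn, F11r, Marveld2, Pard3, Pard6b and Crb3, encode scaffolds and membrane proteins of the tight junction and proteins of the apical polarity complexes. They were chosen by name and are 9 of the 23235 genes in the deposited tables. RNA was measured in cells of the luminal epithelium, the sheet that lines the uterine cavity, and of the stroma beneath it, cut from mouse uteri by laser capture. The uteri carried either Msx1d/d/Msx2d/d, labelled as a knockout restricted to the uterus, or the floxed alleles Msx1f/f/Msx2f/f, labelled as control. Msx1 and Msx2 are homeobox transcription factors. All females had been mated with vasectomized males and were taken on day 4, so both genotypes were pseudopregnant and without embryos. The sources used here name neither the recombinase behind the deletion nor the ages or the exons removed. There were 4 libraries, 1 for each compartment and genotype, and the design speaks of a single mouse of each genotype. Nothing below therefore has a replicate, genotype and animal cannot be told apart, and no difference was tested.

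Tight junctions seal the space between neighbouring epithelial cells near their apical border. Membrane proteins (claudins, occludin, tricellulin and the junctional adhesion molecules) meet across that space and bind, on the inside, a plaque of scaffold proteins that ties them to actin. Where the junction forms is set by polarity complexes: the PAR complex of PAR-3, PAR-6 and atypical protein kinase C, and the Crumbs complex of Crumbs, Pals1 and Patj at the apical membrane. In the uterus the luminal epithelium is polarized before implantation and is the surface to which the embryo attaches.

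Levels are RPKM, reads per kilobase of transcript per 1 M mapped reads, a unit scaled by length that allows levels of different genes to be set side by side. The depth estimated from the values was 90.8 M reads in the labelled-knockout epithelium, 6.32 M in the control epithelium, 60.6 M in the labelled-knockout stroma and 42.5 M in the control stroma. The control epithelium was the shallowest library by far, 14.4 times shallower than the labelled-knockout epithelium, and it set the width of the intervals between genotypes in the epithelium. Intervals are 95% exact limits on the estimated reads and cover counting error only, with no allowance for differences between animals or captures. The check of the targeted genes went in both directions. Msx1 was at 13.6 RPKM in the labelled-knockout epithelium, against 23.2 RPKM in the control epithelium, a ratio of 0.587 (0.515 to 0.670). Msx2 went against the label, with 2.06 RPKM in the labelled-knockout epithelium and 1.31 RPKM in the control epithelium, a ratio of 1.58 (0.978 to 2.60). The libraries are therefore called labelled knockout throughout, and every direction between genotypes rests on that label. Reads outside the deleted exons would still be counted, and Msx1as, a gene overlapping Msx1, was listed at 2.15 RPKM in the labelled-knockout epithelium and 39.0 RPKM in the control epithelium.

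The captures held the cell types that their labels name. The 6 epithelial markers summed to 210 RPKM in the labelled-knockout epithelium and 204 RPKM in the control epithelium, against 0.347 RPKM in the labelled-knockout stroma and 0.864 RPKM in the control stroma. The 9 stromal markers summed to 5.53 RPKM in the labelled-knockout epithelium and 13.3 RPKM in the control epithelium, against 554 and 386 RPKM in the labelled-knockout and control stroma. The 4 glandular markers summed to 0.293 RPKM in the labelled-knockout epithelium and 0.270 RPKM in the control epithelium. In the stroma they summed to 0.0417 RPKM in the labelled knockout and 0.522 RPKM in the control.

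In the luminal epithelium all 9 genes were detected, and none differed 2-fold between the labelled knockout and the control. A gene was called when log2 of (labelled knockout + 1) over (control + 1) reached 1 in size, among genes that averaged 1 RPKM or more in the pair. All 9 genes met that minimum and 0 of 9 were called, while 7.02% of all 7736 genes kept were called. The median log2 difference of the 9 genes was 0.06, beside 0.10 over all genes kept. The genes did not all lie on the same side. Tjp1 and Tjp3 were lower in the labelled knockout and Crb3 was higher, each by a ratio whose counting interval left out 1, and the other 6 genes had intervals that held 1. Over all genes, 25.4% had an interval above 1 and 13.5% had an interval below 1, so 1 and 2 of 9 genes are shares not far from this background. In captured tissue, fewer cells of a type and less RNA per cell cannot be told apart.

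**Figure D1:**
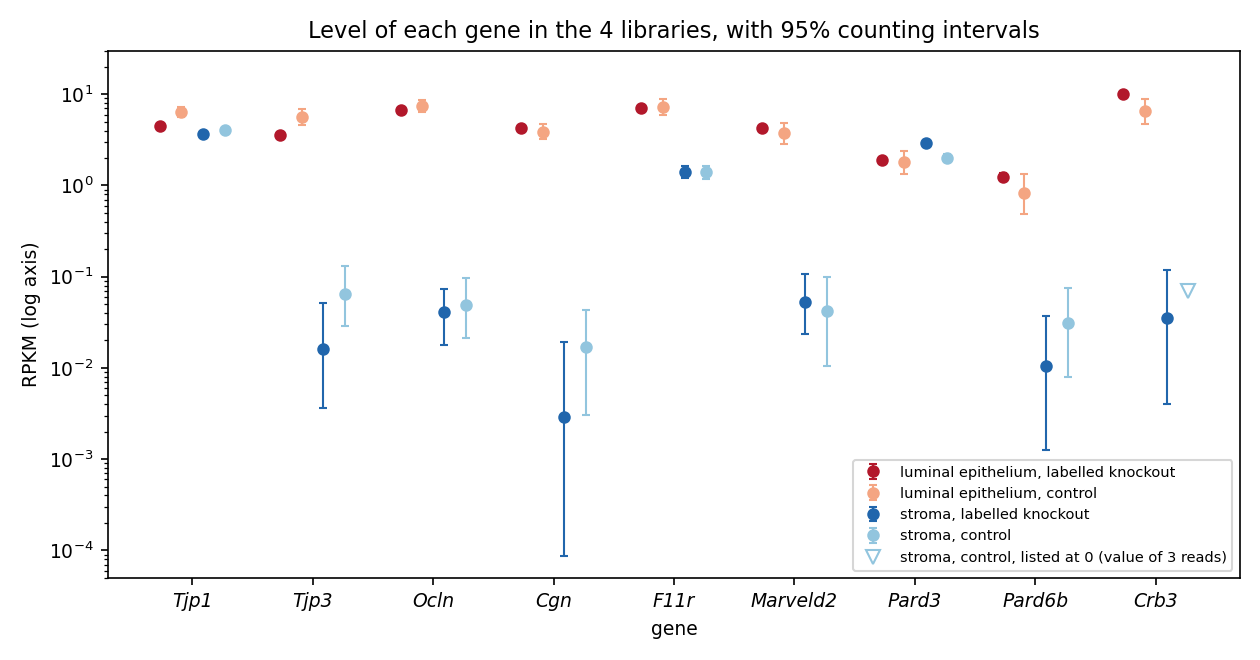
RPKM of each gene on a log axis in the 4 libraries, points with 95% counting intervals, and for Crb3 in control stroma, listed at 0, an open triangle at the value of 3 reads. The 9 genes lie between 0.833 and 10.1 RPKM in the epithelium, and 6 of them lie under 0.1 RPKM in both stroma libraries.

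Among the plaque scaffolds, Tjp1 and Tjp3 gave the lower values and Cgn did not. Tjp1, which encodes ZO-1, a scaffold that binds claudins, occludin and actin (mm9 chr7:72441051-72516130), was at 4.54 RPKM in the labelled-knockout epithelium and 6.39 RPKM in the control epithelium. The ratio was 0.710 (0.624 to 0.809), on 2628 and 258 estimated reads. Tjp3, which encodes ZO-3, the ZO protein found mainly in epithelia (mm9 chr10:80730917-80754012), was at 3.57 RPKM in the labelled knockout and 5.70 RPKM in the control. Its ratio of 0.626 (0.509 to 0.775) was the lowest of the 9 genes in the epithelium. Cgn, which encodes cingulin, a plaque protein that links the junction to actomyosin (mm9 chr3:94563992-94590437), was at 4.25 RPKM in the labelled knockout and 3.89 RPKM in the control, a ratio of 1.09 (0.903 to 1.32). Summed over these 3 scaffold genes, the epithelium held 12.4 RPKM in the labelled knockout and 16.0 RPKM in the control.

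The 3 membrane proteins differed little between genotypes in the epithelium. Ocln, encoding occludin, which spans the membrane 4 times (mm9 chr13:101267322-101322453), was at 6.67 RPKM in the labelled knockout and 7.42 RPKM in the control, a ratio of 0.898 (0.771 to 1.05). F11r, encoding the junctional adhesion molecule JAM-A, an immunoglobulin-like protein that binds ZO-1 and PAR-3 (mm9 chr1:173367692-173394724), was at 7.07 RPKM in the labelled knockout and 7.33 RPKM in the control, a ratio of 0.965 (0.796 to 1.19). Marveld2, encoding tricellulin, which sits where the corners of epithelial cells meet (mm9 chr13:101365912-101386926), was at 4.23 RPKM in the labelled knockout and 3.74 RPKM in the control, a ratio of 1.13 (0.869 to 1.51). The upper bounds for Ocln and F11r leave out any increase of 1.5-fold, as far as counting error goes. Their sum was 18.0 RPKM in the labelled knockout and 18.5 RPKM in the control.

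Of the polarity genes, only Crb3 was apart beyond counting error in the epithelium, on the side of the labelled knockout. Crb3, the Crumbs protein of epithelia, a small apical membrane protein that binds Pals1 and PAR-6 (mm9 chr17:57201700-57205337), was at 10.1 RPKM in the labelled knockout and 6.56 RPKM in the control. The ratio was 1.53 (1.12 to 2.13), with 919 estimated reads in the labelled knockout and 42 in the control. Pard6b, a PAR-6 adaptor that carries atypical protein kinase C and Cdc42 (mm9 chr2:167906504-167926703), was the lowest of the 9 genes, at 1.25 RPKM in the labelled knockout and 0.833 RPKM in the control. Its ratio of 1.496 had an interval of 0.913 to 2.57 on 362 and 17 estimated reads, so a difference of this size was not detectable at the depth of the control. Pard3, the PAR-3 scaffold (mm9 chr8:129587956-130136186), was at 1.91 RPKM in the labelled knockout and 1.79 RPKM in the control, a ratio of 1.07 (0.797 to 1.46). The 3 polarity genes summed to 13.2 RPKM in the labelled knockout and 9.19 RPKM in the control, and Crb3 made up most of both sums.

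**Figure D2:**
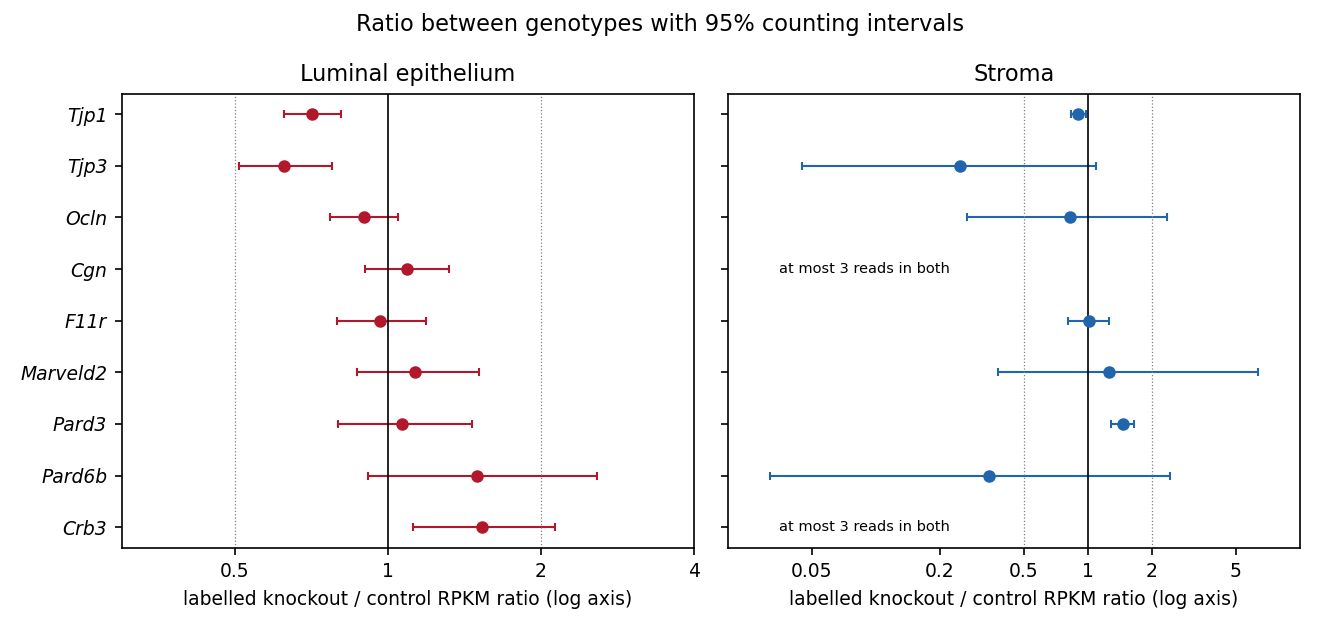
Ratio of labelled knockout to control RPKM for each gene on a log axis, left in luminal epithelium and right in stroma, with 95% counting intervals, a solid line at 1 and dotted lines at 0.5 and 2. In the epithelium the intervals of Tjp1 and Tjp3 lie below 1 and that of Crb3 lies above it, and in the stroma Tjp1 lies below 1 and Pard3 above it.

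The make-up of the 9 genes within a library does not depend on how the libraries were scaled. The 9 genes summed to 43.5 RPKM in the labelled-knockout epithelium and 43.7 RPKM in the control epithelium. Crb3 made up 23.1% of that sum in the labelled knockout and 15.0% in the control, whereas Tjp3 made up 8.21% in the labelled knockout and 13.1% in the control. Tjp1 took 10.4% in the labelled knockout and 14.6% in the control. Such shares show that the genes differed unequally, and not which gene differed or on which side of 1 its ratio lay.

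The scaling did bear on the ratios. All genes kept in the epithelium had a median log2 difference of 0.10 in favour of the labelled knockout. Scaling the libraries by the upper quartile, by the total without the 50 most abundant genes or by the median ratio shifted the log2 of each ratio, taken without a pseudocount, by -0.13, -0.23 and -0.12. Tjp1 and Tjp3 stayed below 1 under all 3 scalings, with Tjp3 at ratios of 0.574, 0.535 and 0.577. The interval of Ocln then also fell below 1, with ratios of 0.822, 0.767 and 0.827. The interval of Crb3 stayed above 1 under 2 of the 3 scalings and held 1 without the 50 most abundant genes, where its ratio was 1.31 (0.955 to 1.82).

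**Figure D3:**
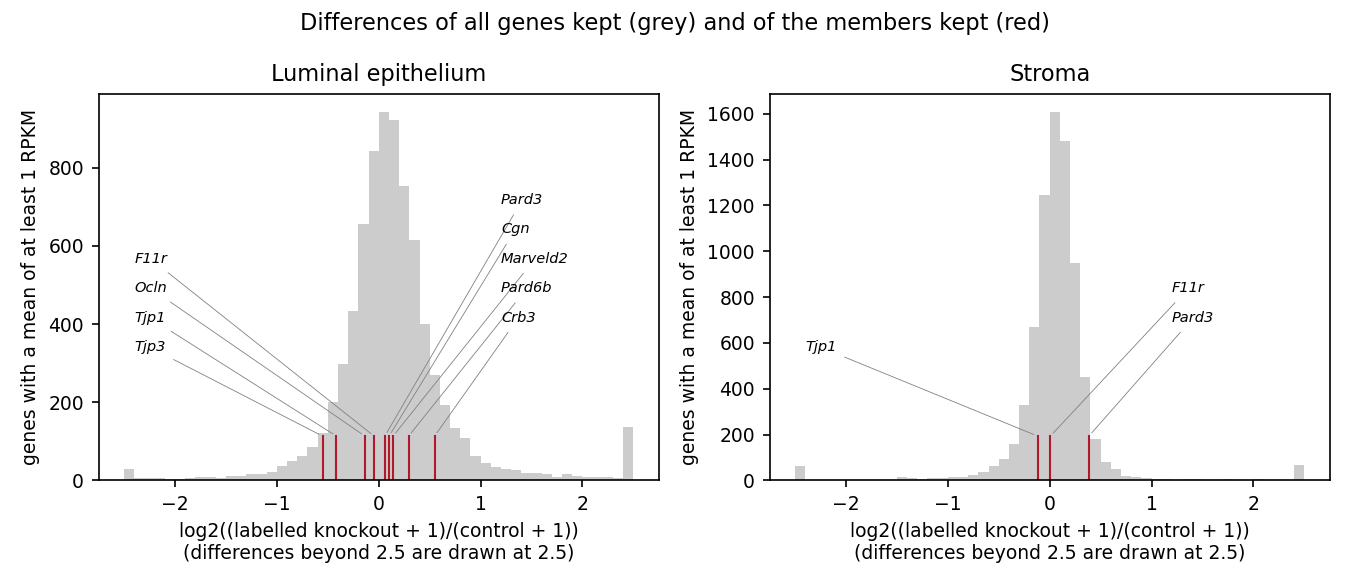
Number of genes by log2((labelled knockout + 1)/(control + 1)) for all genes averaging 1 RPKM or more, left in luminal epithelium and right in stroma, with red lines at the genes described here that were kept, 9 in the epithelium and 3 in the stroma. Tjp3 at -0.55 and Crb3 at 0.55 are the outermost of the 9 and lie inside the range from -0.60 to 1.0 that holds the 5th to the 95th percentile of all genes kept.

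Signal of other cell types differed between the epithelial captures. The 5 leukocyte markers summed to 1.78 RPKM in the labelled-knockout epithelium and 14.8 RPKM in the control epithelium, and the 4 smooth muscle markers to 0.178 RPKM in the labelled knockout and 3.06 RPKM in the control. None of the 9 stromal, 5 leukocyte and 4 smooth muscle markers was higher in the labelled-knockout epithelium. The 8 endothelial markers summed to 0.0873 RPKM in the labelled knockout, with 2 of them at 0, and 0.335 RPKM in the control, with 4 of them at 0. The part of this in the value of Tjp1, which the stroma also holds, was not tested. Tjp3 was at or under 0.0639 RPKM in both stroma libraries, against 3.57 RPKM in the labelled-knockout epithelium and 5.70 RPKM in the control epithelium. The Tjp3 locus overlaps Apba3 in the tables, and no other locus of the 9 overlaps a gene except that Mir3057 lies with Tjp3. Apba3 was at 2.78 RPKM in the labelled-knockout epithelium and 2.26 RPKM in the control epithelium. The part of Apba3 reads in the value of Tjp3 was not tested. The sources used here do not say whether reads were assigned by strand, and Mir3057 was listed at 7.69 RPKM in the labelled-knockout epithelium and at 0 elsewhere.

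In the stroma 3 of the 9 genes, Tjp1, F11r and Pard3, averaged at least 1 RPKM, and 0 of 3 differed 2-fold, against 3.04% of all 7723 genes kept. The median log2 difference over all 9 genes, with no minimum, was -0.01, beside 0 over all genes with no minimum, and 6 of the 9 lie so low that the pseudocount holds them near 0. Tjp1 was at 3.65 RPKM in the labelled-knockout stroma and 4.05 RPKM in the control stroma, a ratio of 0.903 (0.834 to 0.978). Pard3 was at 2.93 RPKM in the labelled-knockout stroma and 2.01 RPKM in the control stroma, a ratio of 1.46 (1.29 to 1.66). Pard3 was thus the gene with the clearest stromal difference, while its epithelial ratio of 1.07 had an interval of 0.797 to 1.46. Whether the genotype difference of Pard3 differed between compartments was not tested. F11r was level at 1.41 RPKM in the labelled-knockout stroma and 1.40 RPKM in the control stroma, a ratio of 1.01 (0.806 to 1.26). Counting intervals lay above 1 for 32.4% and below 1 for 12.6% of all stromal genes, and 1 of the 3 genes lay on each side. Endothelial markers, from cells that form tight junctions of their own, summed to 31.3 RPKM in the labelled-knockout stroma and 34.3 RPKM in the control stroma. Leukocyte markers summed to 45.2 RPKM in the labelled-knockout stroma and 104 RPKM in the control stroma, and their part in the values of Tjp1, F11r and Pard3 was not tested.

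The other 6 genes were at the edge of detection in the stroma, between 0 and 9 estimated reads per library. Tjp3 had 3 reads in the labelled knockout and 8 in the control, Ocln 9 and 8, Marveld2 8 and 4, and Pard6b 2 and 4. The ratios of these 4 genes had intervals that held 1, such as 0.825 (0.270 to 2.35) for Ocln and 0.251 (0.0450 to 1.10) for Tjp3. Cgn, with 1 and 3 reads, and Crb3, with 2 and 0 reads, were given no ratio between genotypes. The exact limit for a count of 0 allows Crb3 up to 0.0863 RPKM in the control stroma. The floor of 3 reads used here is 0.0702 RPKM. In the authors' deposited table the q-value was 0.999999 for each of the 9 genes in the epithelium and for Tjp1, F11r and Pard3 in the stroma, and the other 6 were not tested there. Msx1 had the same q-value in the epithelium, so it does not show that these genes were alike between genotypes.

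Between compartments the 9 genes fell into 3 kinds. Ocln, Marveld2, Tjp3, Cgn, Pard6b and Crb3 were at least 27-fold higher by point value in the luminal epithelium than in the stroma in both genotypes, with a floor of 3 reads for Crb3 in the control stroma. F11r was about 5-fold higher, and Tjp1 and Pard3 were within 1.6-fold of equal. Tables of the compartments were deposited separately, so these ratios also carry any difference in scaling between tables. In the labelled knockout 6 of the 8 genes kept were called at least 2-fold higher in epithelium, beside 20.7% of all 8350 genes kept. In the control it was 6 of the 8 kept, beside 19.6% of 8030 genes. The members called were Tjp3, Ocln, Cgn, F11r, Marveld2 and Crb3. All of these but F11r were so low in stroma that meeting the minimum already fixed their call. The count is therefore no support of its own for them. Pard6b fell under the minimum of 1 RPKM in both comparisons. The median log2 difference over the 9 genes was 2.17 in the labelled knockout, where that of all genes kept was 0.32, and 2.19 in the control, where it was 0.29. The 9 include Pard6b, which was not kept.

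**Figure D4:**
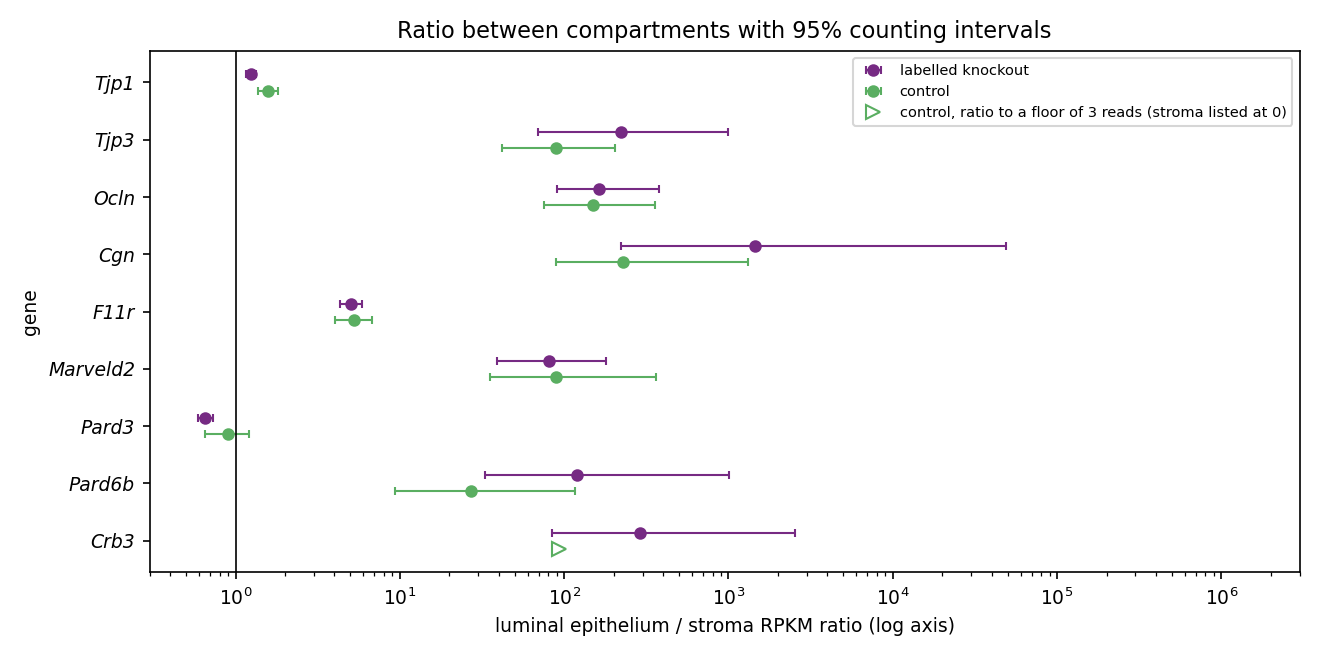
Ratio of luminal epithelium to stroma RPKM for each gene on a log axis, labelled knockout above control, with 95% counting intervals and a line at 1; the open triangle for Crb3 in the control is the ratio to a floor of 3 reads, since the control stroma was listed at 0. For 6 genes the ratios exceed 27, F11r lies near 5, and Tjp1 and Pard3 lie close to 1.

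The epithelial genes had ratios whose size is limited by the few stromal reads. Ocln was 164-fold higher in labelled-knockout epithelium than in labelled-knockout stroma (90.8 to 378) and 151-fold higher in the control pair (75.6 to 358). Marveld2 was 80.4-fold higher in the labelled knockout (39.2 to 180) and 89.4-fold in the control (35.4 to 364). Tjp3 was 223-fold higher in the labelled knockout (69.5 to 989) and 89.2-fold in the control (41.9 to 204). These intervals overlapped between genotypes for each gene named here. Cgn gave a ratio of 1459 in the labelled knockout, with an interval of 222 to 48944 because the stroma held 1 read, and 228 (89.1 to 1312) in the control. Pard6b gave 119 (33.2 to 1001) in the labelled knockout and 27.1 (9.32 to 117) in the control. Crb3 gave 288 (84.6 to 2534) in the labelled knockout. In the control, where the stroma was listed at 0, the exact limit put Crb3 at least 73.2-fold higher in the epithelium, and its ratio to a floor of 3 reads per library was 93.5. For scale, the summed epithelial markers were 604-fold higher in the epithelium in the labelled knockout and 236-fold in the control. The part of stray epithelial RNA in the few stromal reads was not tested.

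F11r, Tjp1 and Pard3 were measured well in both compartments. F11r was 5.01-fold higher in epithelium in the labelled knockout (4.32 to 5.85) and 5.2-fold in the control (4.01 to 6.76). Tjp1 was 1.24-fold higher in the labelled knockout (1.16 to 1.33) and 1.58-fold in the control (1.38 to 1.81), and its direction in the labelled knockout turned under other settings, between -0.14 and 0.31 on the log2 scale. Pard3 was the only one of the 9 that was lower in epithelium than in stroma by point value in both genotypes, with a ratio of 0.654 (0.590 to 0.725) in the labelled knockout and 0.895 (0.647 to 1.21) in the control. In the stroma Tjp1, Pard3 and F11r were the 3 highest of the 9 genes in both genotypes, in that order, and their neighbouring intervals did not overlap.

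The order of levels could be told in finer steps in the deeper labelled-knockout epithelium. There Crb3 was highest, above 95.1% of all genes in the table, followed by F11r and Ocln, whose intervals overlapped. Tjp1, Cgn and Marveld2 came next with overlapping intervals, then Tjp3, Pard3 and Pard6b, each apart from its neighbour. In the control epithelium Ocln was highest, above 94.4% of genes, and each neighbour from Ocln through F11r, Crb3, Tjp1, Tjp3 and Cgn down to Marveld2 overlapped the next. Pard3 and Pard6b came last in both genotypes, with overlapping intervals in the control. Pard6b still lay above 69.4% of genes in the labelled-knockout epithelium and 65.8% in the control epithelium.

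The cingulin and JAM families were led by different genes in the compartments. Cgn held 66.6% of the cingulin family in the labelled-knockout epithelium and 61.4% in the control epithelium. In the stroma nearly all of it was Cgnl1, paracingulin, at 3.01 RPKM in the labelled knockout and 2.51 RPKM in the control. Among the JAM genes, Jam2 far exceeded F11r in the epithelium, at 88.0 RPKM in the labelled knockout and 90.1 RPKM in the control, so F11r made up 7.44% and 7.51% of the JAM sum there. Jam3 was the most abundant JAM gene in the stroma, at 3.87 RPKM in the labelled knockout and 3.29 RPKM in the control.

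**Figure D5:**
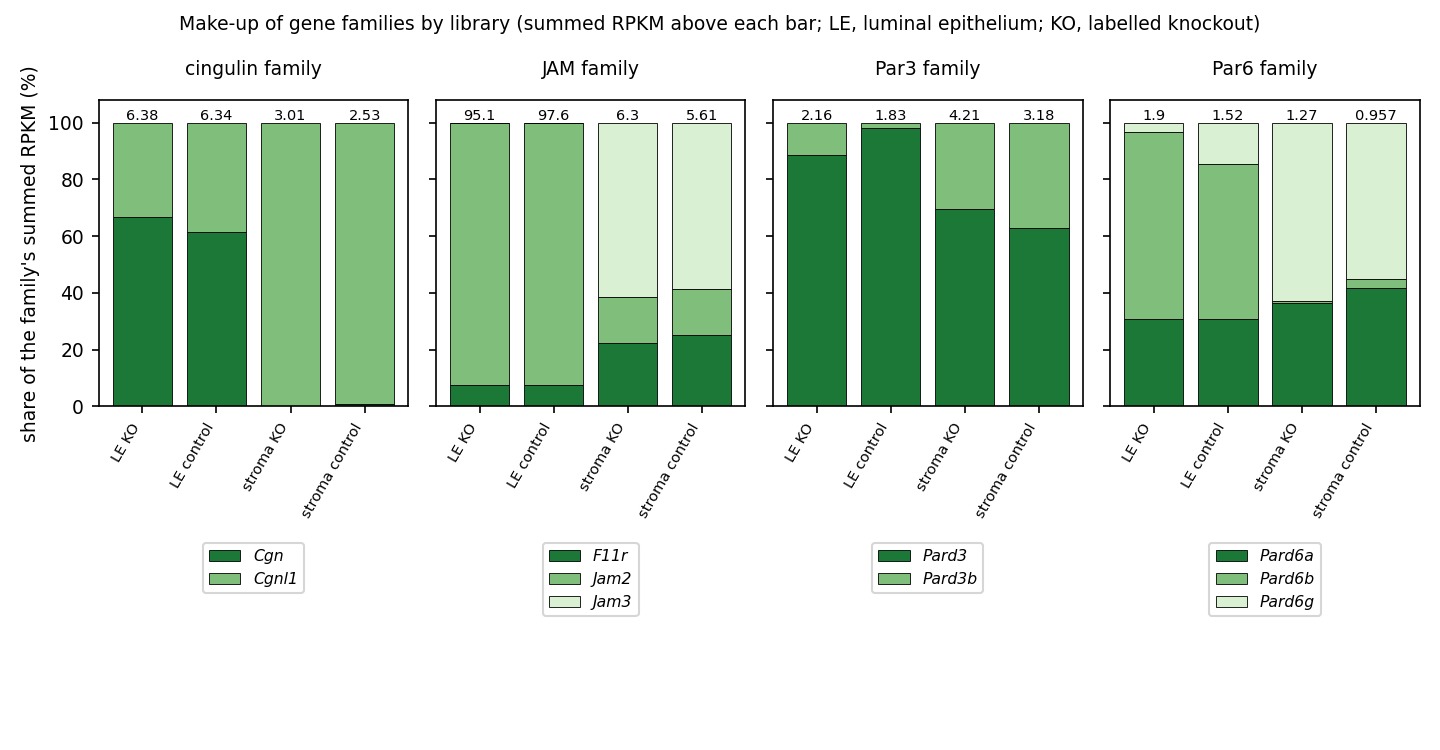
Share in percent of each family's summed RPKM taken by each gene in the 4 libraries, with the summed RPKM above each bar. Cgn, Jam2, Pard3 and Pard6b take the largest share in both epithelial libraries, and Cgnl1, Jam3, Pard3 and Pard6g in both stromal libraries.

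Of the polarity families, the PAR-6 genes were led by different members in the compartments by point value, and the PAR-3 genes were not. Pard6b held 65.7% of the PAR-6 family in the labelled-knockout epithelium and 54.8% in the control epithelium. Its share was 0.823% in the labelled-knockout stroma and 3.21% in the control stroma. There Pard6g led at 0.798 RPKM in the labelled knockout and 0.528 RPKM in the control. Pard6a held 30.8% and 30.7% in the labelled-knockout and control epithelium, and 36.4% and 41.6% in the labelled-knockout and control stroma. In the labelled knockout its level intervals lay apart from those of the leading gene. In the control epithelium they overlapped, at 0.490 to 1.35 RPKM for Pard6b and 0.0918 to 1.30 for Pard6a. The control stroma likewise gave 0.407 to 0.670 RPKM for Pard6g and 0.235 to 0.628 for Pard6a. Pard3 led over Pard3b in all 4 libraries, and Pard3b was at 1.29 RPKM in the labelled-knockout stroma and 1.18 RPKM in the control stroma, against 0.249 and 0.0354 RPKM in the labelled-knockout and control epithelium. The epithelial values of Pard3b rest on 185 estimated reads in the labelled knockout and only 2 in the control. Crb3 was 99.8% of the Crumbs family in the labelled-knockout epithelium and 99.6% in the control epithelium. Of the MARVEL genes beside Ocln and Marveld2, Marveld3 was at 2.99 RPKM in the labelled-knockout epithelium and 2.94 RPKM in the control epithelium.

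Other genes of the junction and of the polarity complexes also gave no difference past 1 on the log2(RPKM + 1) scale between genotypes. Of 24 further tight junction genes that are not claudins, 16 were kept in the epithelium and 0 of them were called, 11 lying above 0 and 5 below, with a median log2 difference of 0.08. Of all genes kept in the epithelium, 4792 of 7736 lay above 0, with a median of 0.10. In the stroma 14 were kept and 0 were called. Over all genes kept, 7.02% were called in the epithelium and 3.04% in the stroma. At those shares a list of this size would hold few calls or none. Of the 16 kept in the epithelium, 4 had an interval above 1 and 2 below it, beside 25.4% and 13.5% of all genes. Amotl1, an angiomotin-like junction protein that binds actin, was at 4.57 RPKM in the labelled-knockout epithelium and 7.08 RPKM in the control epithelium. Its ratio was 0.645 (0.581 to 0.718), close to that of Tjp3. Amotl2, picked after its value was seen, had a ratio above 1, at 1.71 (1.25 to 2.44). Lsr, which recruits tricellulin to cell corners, was at 10.3 RPKM in the labelled-knockout epithelium and 9.0 RPKM in the control epithelium. Esam, an adhesion molecule of endothelial junctions, was at 7.74 RPKM in the labelled-knockout stroma and 8.06 RPKM in the control stroma, and at 0.193 and 0 RPKM in the labelled-knockout and control epithelium. At the depth of the control epithelium, 3 reads of Esam are 0.285 RPKM, so its 2 epithelial values cannot be told apart. Cxadr and Igsf5, adhesion proteins of the junction picked after their values were seen, lay on the other side, with ratios of 1.72 (1.36 to 2.22) and 2.56 (1.52 to 4.96) in the epithelium. With the pseudocount, the log2 difference of Igsf5 was 0.94 and missed the call. Of 23 further polarity genes, 15 were kept in the epithelium and 13 in the stroma. Of these 0 were called in either, beside the same shares of all genes. In the stroma 12 of the 13 lay above 0, with a median log2 difference of 0.11, beside 4957 of 7723 and 0.07 for all stromal genes kept. The partners of the polarity genes described here were present in the epithelium. Cdc42, the GTPase that binds PAR-6, was at 30.7 RPKM in the labelled knockout and 27.9 RPKM in the control. Inadl, which encodes Patj of the Crumbs complex, was at 12.8 RPKM in the labelled knockout and 11.2 RPKM in the control, and Prkci, an atypical protein kinase C, was at 6.93 RPKM in the labelled knockout and 8.09 RPKM in the control. Lin7c, a small scaffold that binds Pals1, was at 7.03 RPKM in the labelled knockout and 5.58 RPKM in the control. In stroma Inadl was at 0.364 RPKM in the labelled knockout and 0.611 RPKM in the control.

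The genes whose pattern over the 4 libraries lay closest to the median profile of the 9 were Vill, Itpripl1, Atp10b, Mif4gd and Slc25a10, at distances of 0.147 to 0.166 on the log2(RPKM + 1) scale. Vill, a villin-like gene, was at 4.82 RPKM in the labelled-knockout epithelium and 5.17 RPKM in the control epithelium, with 0.416 and 0.327 RPKM in the labelled-knockout and control stroma. Of the 9 themselves, Marveld2 and Cgn lay closest to that profile, at 0.264 and 0.296, and Pard3 and Tjp1 farthest, at 2.41 and 1.74. With 4 libraries, such closeness mostly restates the gap between compartments.

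Promoters of Tjp1, Tjp3 and Crb3 are printed below, because the counting intervals of their ratios between genotypes left out 1 in the epithelium and because they stand for a gene of both compartments (Tjp1) and for genes of the epithelium (Tjp3 and Crb3). The stretches come from RefSeq, build GRCm38.p6, another build than the mm9 of the tables, and end at the most upstream start, except that for Crb3 the stretch ends where an annotated exon begins. Each reads 5′ to 3′ on the strand of the gene, and capitals mark matches to CAGGTG, the E-box word bound by Snail and Zeb factors, and to GGGCGG, the GC box, on either strand. They lie at chr7:65371245-65371494 on the minus strand (Tjp1), chr10:81291582-81291831 on the minus strand (Tjp3) and chr17:57061951-57062140 on the plus strand (Crb3).
Tjp1: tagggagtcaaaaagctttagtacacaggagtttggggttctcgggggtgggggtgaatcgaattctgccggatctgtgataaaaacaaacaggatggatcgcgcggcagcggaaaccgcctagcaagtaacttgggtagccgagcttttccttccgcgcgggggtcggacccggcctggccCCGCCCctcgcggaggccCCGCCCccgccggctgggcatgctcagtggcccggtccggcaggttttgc
Tjp3: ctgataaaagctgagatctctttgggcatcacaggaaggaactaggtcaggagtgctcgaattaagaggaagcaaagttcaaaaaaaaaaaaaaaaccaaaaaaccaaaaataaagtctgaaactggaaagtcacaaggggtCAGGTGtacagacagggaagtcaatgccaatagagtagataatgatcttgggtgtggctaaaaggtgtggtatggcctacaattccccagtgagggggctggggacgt
Crb3: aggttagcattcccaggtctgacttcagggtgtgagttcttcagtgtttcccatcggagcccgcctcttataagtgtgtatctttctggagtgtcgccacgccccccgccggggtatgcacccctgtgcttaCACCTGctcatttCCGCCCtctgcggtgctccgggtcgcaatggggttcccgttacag

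The Tjp1 stretch held 2 GC boxes and no E-box, the Tjp3 stretch 1 E-box and no GC box, and the Crb3 stretch 1 of each. All 9 genes had at least 1 promoter window of 300 bases in the RefSeq table, 14 windows in all, some of them overlapping. The E-box was in 11 of the 14 windows and in 7 of the 9 genes, all but Cgn and Tjp1, and in 20.2% of 32851 windows of all genes. The GC box was in 11 of the 14 windows and in every gene but Tjp3, and in 35.7% of all windows. Most of the 14 windows were richer in G and C than the median of all windows, 52.7%, and they ranged from 45.3% (Tjp3) to 78.7% (Pard3). The part of base composition in these shares was not tested. The word TATAAA was in 3 of the 14 windows, of Marveld2 and Pard3, and in 13.6% of all windows. The grainyhead-like word AACCGGTT and the Msx-type homeodomain word TAATTG were in 0 of the 14 windows, and in 0.146% and 8.0% of all windows. A match is a string of letters and not a shown binding site, and no matches in the printed stretches share a letter.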

How the data were processed

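RNA-seq was deposited as 2 tables, 1 per compartment, each with 23235 genes and 1 column per library. Their values are RPKM as the authors computed them, per the file headers, with the authors' own p-value and q-value for each gene. The submitters' processing notes name Cufflinks 2.0.2, TopHat, TopHat2 2.0.5, CASAVA 1.8.2 and mm9. Their roles, settings, filters and use of strand are not given in the sources used here. Libraries followed the TruSeq Stranded Total RNA kit with Ribo-Zero, per the labels.

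Differences were log2((a + 1)/(b + 1)) of the deposited RPKM, which understates low genes, for genes averaging 1 RPKM or more in the pair. Ratios used RPKM without a pseudocount. Depth was estimated from low RPKM values times transcript length less 200 bp, with GENCODE vM21 lengths known for 97.3% of genes. Between 58.4% and 61.0% of low values lay within 0.2 of a whole read, and the step was fitted to those values. Evenly spread values would also put a large part inside that window, so these shares are limited support for the depths. Intervals are 95% exact binomial (Clopper-Pearson) limits for ratios and exact Poisson limits for levels. PCR copies are not independent molecules. Starts of loci were raised by 1. With 1 library per group no test was run. The steps were tested on simulated counts, drawn with the same transcript lengths that were used to recover them. Low values there fall on whole reads by construction, unlike the deposited ones, so that test does not show how well depth was estimated here.

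The 9 genes, the lists, the promoter words and the markers were chosen with earlier results of these data known. Named by rule beyond the 9 were Msx1 and Msx2, paralogs, the 4 highest genes of each list and the 5 genes closest in pattern with names of their own. A junction gene is not reported here and was left out of its list. The work ran in Python 3.11.15 with scipy 1.17.1, pandas 2.3.3, matplotlib 3.10.9 and numpy 2.4.6.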

Additional observations from a re-analysis of the deposited data

How the results depend on the processing

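Between genotypes, none of the genes kept passed 2-fold in either compartment under pseudocounts of 0.1 and 5 RPKM, no minimum or 3 scalings. With the main pseudocount of 1 RPKM, none passed 1.5-fold. That depends on the pseudocount, since the epithelial ratios of Tjp3 (0.626) and Crb3 (1.53), taken without one, lie past 1.5-fold. A minimum of 5 RPKM kept 4 of the 9 genes in the epithelium, 0 of them past 2-fold, and 0 in the stroma, where it says nothing. In the epithelium the sign turned under some of these for Cgn, Marveld2 and Pard3, and in the stroma for F11r. The epithelial median over the 9 genes was -0.02, -0.09 and -0.02 under the upper quartile, 50-most-abundant and median ratio scalings, and the stromal mean was 0.02 where the median was -0.01. Over all genes, the epithelial count past 2-fold was 543, against 919 with a pseudocount of 0.1, 244 with 5, 266 with a minimum of 5 and 1311 at 1.5-fold, and the stromal count was 235, against 434 at 1.5-fold. Between compartments it was 2620 in the labelled knockout and 2547 in the control, against 997 and 926 with a pseudocount of 5, 963 and 897 with a minimum of 5, and 4193 and 4100 at 1.5-fold. Between compartments, the median log2 difference of the 9 genes was 4.83 in the labelled knockout and 4.76 in the control with a pseudocount of 0.1, and 0.87 and 0.83 with a pseudocount of 5. With that pseudocount, 2 genes in the labelled knockout and 3 in the control were 2-fold higher in epithelium, and with a minimum of 5 RPKM, 1 of 1 gene kept (Crb3) in the labelled knockout and 0 of 1 (Tjp1) in the control. The pseudocount shrinks the differences of low genes by its construction. No paired analysis was possible because each group has 1 library. The depth of the control epithelium limits what can be told for Pard6b and Crb3, and under 10 reads limit 6 genes in the stroma.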
